A study of Homo sapiens with 9 samples.

Results

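ENOSF1, SLC3A2, ORAI2, DVL2, PPOX and PPP2R5A are 6 genes known to be mis-spliced when SF3B1 is mutated, and their rows were read from the editing lists of 2 fusion proteins. They were chosen by symbol, and because each was already known to be on at least 1 list. They are 6 of the 1513 genes named on either list. The presence and the site counts of the 6 genes are therefore a description and carry no test. The label refers to splicing in SF3B1-mutant cells, which was not measured here: the sample descriptions call the cells SF3B1 wild type, and the tables count editing sites, not splice junctions.

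The samples were libraries of total RNA from 293T, an immortalised cell line derived from human embryonic kidney that expresses SV40 large T antigen. In TRIBE-seq an RNA-binding protein is fused to the deaminating part of ADAR, here a hyperactive form of the fly enzyme, which turns adenosines near its partner's contact sites into inosines, read as guanosines in RNA-seq. The groups used here are cells transfected with a GPATCH8-ADAR plasmid (2 libraries, run 1) and cells transfected with an ADAR-SUGP1 plasmid (2 libraries, run 2). The other 5 of the 9 libraries were controls, 2 of a non-targeting ADAR fusion from run 1, 2 of such a fusion from run 2, and 1 of untransfected cells from run 2; these enter only through the sites that the authors removed. Transfection was transient and the fusions came from plasmids, so they were expressed on top of the cells' own proteins. Cells were collected 24 h after transfection by sorting live cells that were positive for GFP. The second fusion is named ADAR-SUGP1 in the file header, the name used here, and SUGP1-ADAR in the sample descriptions.

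SF3B1 is a protein of the U2 snRNP, the particle that binds the branchpoint and so helps to choose the 3′ splice site of an intron. Cancer mutations in SF3B1 shift splicing of certain introns to cryptic 3′ splice sites that lie upstream of the normal ones. SUGP1 carries a G-patch domain, through which such proteins activate RNA helicases, and its binding to SF3B1 is weakened by these mutations. GPATCH8 is another G-patch protein, and the series title names it as required for the mis-splicing. Which transcripts each protein contacts in cells was the question of the experiment.

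The lists differed in size, with 565 genes and 797 sites with GPATCH8-ADAR and 1110 genes and 1358 sites with ADAR-SUGP1. The labels state about 60 to 80M paired-end reads of 100 bp for each library, and the depth behind each site is unknown. Each count is 1 value for both replicates of a fusion together (called pooled here), over the sites that the authors found in both. No count therefore has a replicate error, and the number of sites in a control library is not known for any of these genes. Because no run held both fusions, a difference between fusions and one between runs cannot be told apart. A gene that is not on a list may have had no site, a site in 1 replicate, a site that was removed with the control sites, or too few reads.

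ENOSF1 was the only one of the 6 genes on both lists. It encodes a mitochondrial enzyme of the enolase superfamily, and it is among the genes whose splicing is used as a readout of mutant SF3B1. With GPATCH8-ADAR it had 1 site, and with ADAR-SUGP1 it had 4. All of them were intronic and were counted on the same transcript, ENST00000383578.3. Of the 156 transcripts on both lists, 3 (1.92%) had at least 3 more intronic sites with ADAR-SUGP1, of which this was one, and 6 (3.85%) had at least 3 more with GPATCH8-ADAR. Summed over transcripts, a gain of at least 3 sites with ADAR-SUGP1 was found in 7 of the 162 genes on both lists (4.32%).

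ENOSF1 also had more listed transcripts (2 on the GPATCH8-ADAR list, 3 on the other) than the other 5 genes, which had 1 each. ENST00000584259.2 was on both lists with a count of 0 in every region. Such empty rows made up 52 of the 612 rows of the GPATCH8-ADAR list (8.50%) and 162 of the 1340 of the other (12.1%), and 7 transcripts were empty on both lists. The third transcript, ENST00000585128.2, was on the ADAR-SUGP1 list alone and had 1 site in the stop-codon region and none in its body. The tables count the stop-codon region apart from the transcript total, and without positions it cannot be told whether this site was also counted elsewhere. Among ADAR-SUGP1 genes, 23 of 1110 (2.07%) had at least 3 listed transcripts, and among GPATCH8-ADAR genes 44 of 565 (7.79%) had more than 1.

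SLC3A2 was on the GPATCH8-ADAR list alone. It encodes the heavy chain of CD98 (4F2hc), which brings amino acid transporters of the SLC7 family to the plasma membrane. It had 4 sites, all in introns of ENST00000377892.1, and these were 4 of the 5 sites that the 6 genes had with this fusion (80.0%). A count of at least 4 was held by 30 of the 565 GPATCH8-ADAR genes (5.31%) and, for comparison with ENOSF1, by 21 of the 1110 ADAR-SUGP1 genes (1.89%). Among the genes on the GPATCH8-ADAR list alone it was held by 18 of 403 (4.47%). At least 4 intronic sites were held by 21 genes (3.72%). No SLC3A2 transcript was on the ADAR-SUGP1 list, so ENOSF1 and SLC3A2, each with a count of 4 intronic sites on 1 transcript, had it with different fusions.

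ORAI2, a pore subunit of store-operated calcium channels, was on the ADAR-SUGP1 list alone. Its 2 sites lay in the 3′ UTR of ENST00000356387.2, and it was the only one of the 6 genes with transcript-body sites outside introns. With this fusion 27 of 1110 genes (2.43%) had at least 2 sites in the 3′ UTR. Of the 1041 ADAR-SUGP1 genes with a site in the transcript body, 166 (15.9%) had all of them in the 3′ UTR and 680 (65.3%) had all of them in introns. The mis-splicing that gave the gene its place among the 6 concerns an intron, and no intronic site of ORAI2 was listed with either fusion. For the other genes, it cannot be told without positions whether any intronic site lies in the intron that is mis-spliced.

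DVL2, PPOX and PPP2R5A had 1 intronic site each with ADAR-SUGP1 and were not on the GPATCH8-ADAR list. DVL2 encodes a Dishevelled protein, which relays Wnt signals from Frizzled receptors, and its site was counted on ENST00000005340.5. PPOX encodes protoporphyrinogen oxidase, a mitochondrial enzyme late in heme synthesis, with its site on ENST00000352210.5. PPP2R5A encodes a B56 regulatory subunit of the phosphatase PP2A, with its site on ENST00000261461.2. These 3 genes had the most common site count of the ADAR-SUGP1 list. A single transcript-body site, in any region, was present in 827 of its 1110 genes (74.5%), and in 722 of the 948 genes (76.2%) on that list alone. Each of the 3 had the same region counts with both fusions as 451 of the other 1512 genes (29.8%).

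**Figure D1:**
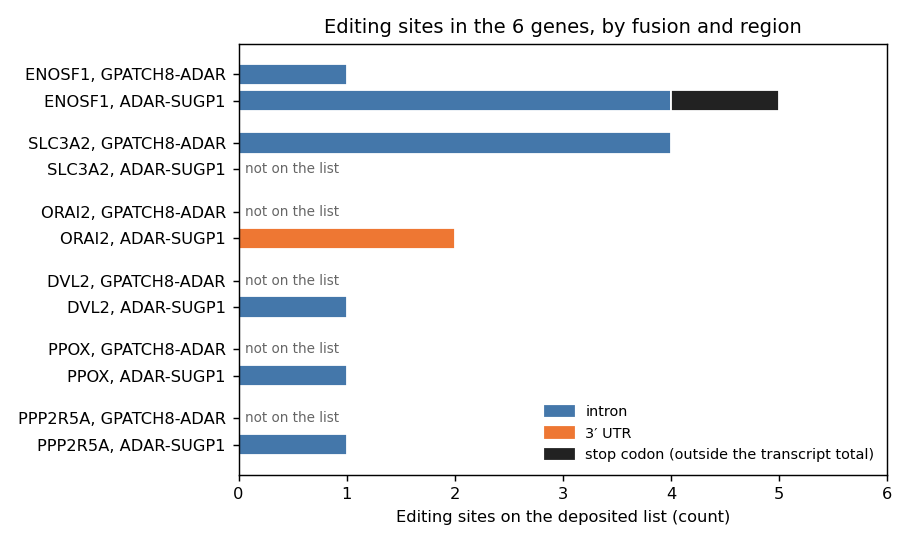
Horizontal bars give the number of editing sites on the deposited list for each of the 6 genes with each fusion, coloured by region. The x axis is the count of sites that the authors kept as found in both replicates, with no error available. ENOSF1 has bars with both fusions (1 and 4 intronic sites, plus 1 stop-codon site outside the transcript total), SLC3A2 with GPATCH8-ADAR only, and the other 4 genes with ADAR-SUGP1 only.

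Counted over the 6 genes, 2 (33.3%) were listed with GPATCH8-ADAR, against 565 of all 1513 listed genes (37.3%). With ADAR-SUGP1 5 (83.3%) were listed, against 1110 (73.4%). One gene of the 6 (16.7%) was on both lists, against 162 of 1513 (10.7%). Each count is within 1 gene of what the background share would give for 6 genes, so the split between the lists is not a result about these genes.

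With GPATCH8-ADAR the 6 genes held 5 of the 797 sites, and the ADAR-SUGP1 list gave them 9 of its 1358. Scaled to the size of each list, this was 6.27 sites per 1000 (95% exact binomial interval 2.04 to 14.6) and 6.63 per 1000 (3.03 to 12.5), which cover counting error only and treat sites of 1 gene as independent. The 6 genes were chosen because each was on a list, so these rates and intervals are a description and carry no test. The difference of 0.354 per 1000 was far smaller than the width of either interval. Its sign turned when only intronic sites were counted (7.94 and 7.45 per 1000, a difference of -0.490). Without SLC3A2 the GPATCH8-ADAR value was 1.25 per 1000 and the difference 5.37, and without ENOSF1 the values were 5.02 and 3.68. The difference thus depends on these 2 genes. They held all 5 GPATCH8-ADAR sites, whereas ENOSF1 held 4 of the 9 ADAR-SUGP1 sites (44.4%) and SLC3A2 none.

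By region, all 5 GPATCH8-ADAR sites and 7 of the 9 ADAR-SUGP1 sites were intronic, against 79.0% and 69.2% of all sites on the lists. The 5 GPATCH8-ADAR sites lay in only 2 genes, 4 of them in SLC3A2. Of the 533 GPATCH8-ADAR genes with a transcript-body site, 408 (76.5%) had all of them in introns. No site of the 6 genes was counted in coding sequence, the 5′ UTR or the promoter with either fusion. The mean was 2.50 sites for the 2 genes listed with GPATCH8-ADAR and 1.80 for the 5 listed with ADAR-SUGP1, against 1.41 and 1.22 over all genes of those lists. The medians were 2.50 and 1, against 1 on both lists.

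**Figure D2:**
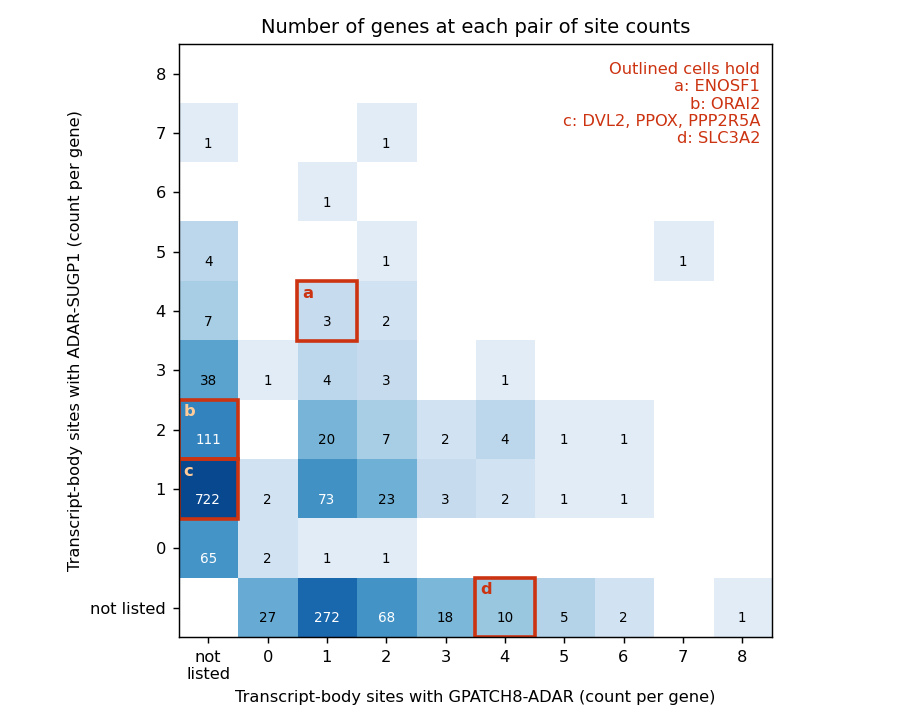
Each cell gives the number of genes with a given count of transcript-body sites with GPATCH8-ADAR (x axis) and ADAR-SUGP1 (y axis), with darker blue for more genes on a log scale; outlined cells hold the 6 genes. DVL2, PPOX and PPP2R5A share their cell with 719 other genes and ORAI2 with 110, while SLC3A2 shares its cell with 9 and ENOSF1 with 2.

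The genes most like each of the 6 were taken as those with the smallest summed difference over 8 values, the counts in 5′ UTR, coding sequence, 3′ UTR and intron with each fusion. The ENOSF1 pattern of 1 and 4 intronic sites was shared by 2 of the other 1512 genes, RFC3, a subunit of the clamp loader of DNA replication, and VOPP1. CPSF3L (current symbol INTS11, the endonuclease of the Integrator complex) was next, with 1 and 3 intronic sites. The SLC3A2 pattern was shared by 6 genes, the first by alphabet being AC093838.4, BRD8, which encodes a bromodomain subunit of the TIP60 complex, and C4orf21 (current symbol ZGRF1). The ORAI2 pattern was shared by 19 genes, among them the LIM-domain gene AJUBA and ALDH6A1, a mitochondrial aldehyde dehydrogenase gene. DVL2, PPOX and PPP2R5A were identical to one another and to 449 further genes outside the 6. These likenesses come from counts over 2 pooled lists.

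Other genes with reported mis-splicing by mutant SF3B1 were counted from a list of 30 that holds the 6. Of the other 24, 3 were on a list (12.5%), where 6.55% of 20056 RefSeq protein-coding genes had a row with either fusion. That background was not matched for expression, and unlike it the 24 include genes that are not protein-coding, such as GUSBP11. The list was written with earlier results on these tables known, among them that RPL31 was edited, so this share supports nothing. RPL31, which encodes a ribosomal protein, had 6 intronic sites and 1 in the 3′ UTR with ADAR-SUGP1, summed over 4 transcripts, where no single transcript had more than 3. Without positions it cannot be told whether a site was counted for more than 1 of these transcripts. Another RPL31 transcript, ENST00000409320.3, had only a stop-codon site. TMEM214, a membrane protein gene, had 1 coding site with ADAR-SUGP1 on ENST00000321326.7, and a stop-codon site on ENST00000425720.1. GUSBP11, a transcribed pseudogene, had 1 intronic site with GPATCH8-ADAR on ENST00000455485.1. It has close copies in the genome, so its reads may come from another copy. The remaining 21 genes were on neither list, MAP3K7 and BRD9 among them, the former a kinase of inflammatory signalling and the latter a subunit of a SWI/SNF complex. Of the 9 listed genes of the 30, 3 were on the GPATCH8-ADAR list (33.3%) and 7 on the ADAR-SUGP1 list (77.8%), beside 37.3% and 73.4% of all listed genes.

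Of 57 genes from the pathways or families of 5 of the 6 genes, 4 were listed (7.02%). This was close to the 6.55% of RefSeq protein-coding genes, a background not matched for expression in these cells, so this share is not a result about these genes. Of 7 SLC3 and SLC7 transport genes beside SLC3A2, SLC7A5, which encodes the light chain LAT1, had 1 intronic site on ENST00000565644.1 with ADAR-SUGP1. The heavy chain gene SLC3A2 was listed with GPATCH8-ADAR, and few listed genes were on both lists (10.7%). Of 4 store-operated calcium entry genes beside ORAI2, its paralog ORAI3 had 1 coding site on ENST00000318663.4 with ADAR-SUGP1, the fusion with which ORAI2 was listed. Of 22 Wnt pathway genes beside DVL2, the paralog DVL1 had 1 intronic site with each fusion on the same transcript, ENST00000378891.5, where DVL2 had its site with ADAR-SUGP1 only. Of 9 heme synthesis and transport genes beside PPOX, ALAS1, which catalyses the first and rate-limiting step, had 2 intronic sites on ENST00000469224.1 with GPATCH8-ADAR, and PPOX was on the other list. None of 15 further PP2A subunit genes was listed.

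**Figure D3:**
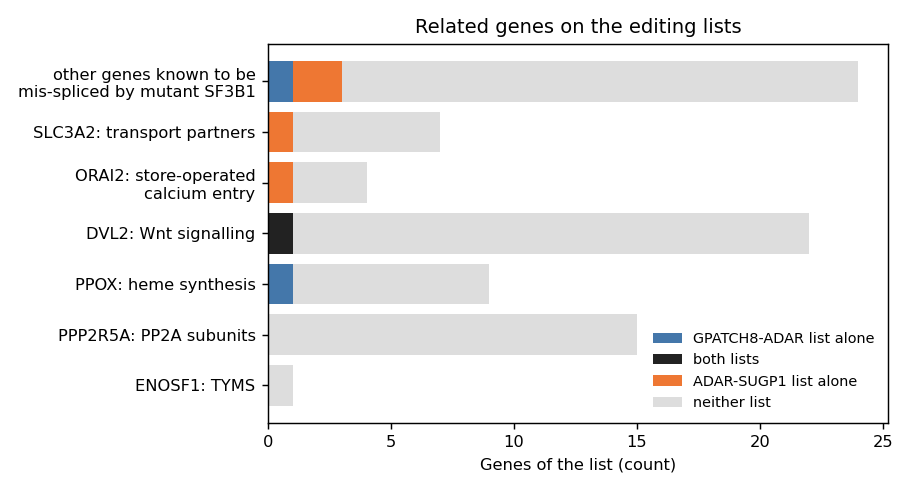
Horizontal bars give the number of genes of each related list (x axis, count of genes, the 6 genes themselves left out) that were on the GPATCH8-ADAR list alone, on both, on the ADAR-SUGP1 list alone or on neither. Grey stands for neither list, for example 21 of 24 other mis-spliced genes and 21 of 22 Wnt genes; only 6.55% of RefSeq protein-coding genes were on a list, so mostly grey bars are not particular to these genes.

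Genes that share a locus with the 6 were looked up by name, because the tables give no strand. TYMS, which encodes thymidylate synthase, overlaps ENOSF1 on the opposite strand, and reads of the overlap cannot be assigned without strand. TYMS was on neither list. In all, 5 genes overlap 4 of the 6 (TYMS, ALKBH4 with ORAI2, B4GALT3 with PPOX, and the pseudogene RPL23AP18 and the small nucleolar RNA gene SNORA16B with PPP2R5A), and 0 of the 5 were listed. Only 6.55% of RefSeq protein-coding genes were on a list, so nothing is read from 0 of 5 genes, some of them non-coding. SLC3A2 and DVL2 had no overlapping gene in the RefSeq table.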

How the data were processed

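For each fusion the authors deposited a table of Ensembl transcripts in which the values are counts of edited positions (reads are not counted), split by the regions that the columns name, per the file headers. The submitters' processing notes name Trimmomatic, STAR and hg19; the site caller, thresholds, annotation, tool versions and strand setting are not given in the sources used. Per the series' design text, the authors removed endogenous sites and those of a control fusion and kept sites found in both replicates. The whole-transcript count equals 5′ UTR, coding, 3′ UTR and intron together in all 612 and 1340 rows; 572 blank rows were skipped. A gene's count is the sum over its listed transcripts, made with pandas 2.3.3 (intervals: scipy 1.17.1).

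The 6 genes, the 7 related lists and the rules were chosen with earlier results of these data known. Named were the 6 genes, up to 3 genes nearest to each with at least 2 sites, listed genes of the related lists and genes overlapping the 6; 1 gene that this rule names is not reported here. No test was possible between pooled lists. Older names were matched through RefSeq genes of assembly GRCh38.p14 (1244 of 1513 names current, 123 by synonym), which also gave the overlaps; since the files are on hg19, no coordinates or sequences are printed. Whether the replicates were separate cultures is not stated in the labels. The distances were tested on simulated data.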

Additional observations from a re-analysis of the deposited data

How the results depend on the processing

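Over all alternatives 34 values were recomputed, and 27 were counted as unchanged. A count had to stay within 1.5 times its value. The sites per 1000 had to keep the sign of the difference, with both rates inside their binomial intervals. Many of the 27 could not have changed, so the tally is no measure of robustness. Requiring at least 1 transcript-body site removed no such site and none of the 6 genes. All listed transcripts of the 6 are protein-coding, and each gene's transcript-body sites lie on 1 transcript. Their counts were thus fixed for protein-coding transcripts only and for the largest count of 1 transcript. Leaving out SLC3A2 could not alter the ADAR-SUGP1 count. When only genes with at least 2 sites were kept, a listed gene count of 2 became 1 with GPATCH8-ADAR (SLC3A2) and one of 5 became 2 with ADAR-SUGP1 (ENOSF1 and ORAI2). The difference in sites per 1000 (ADAR-SUGP1 minus GPATCH8-ADAR, 0.354) was -0.490 over intronic sites. Alternatives that left out 1 gene or added stop-codon and promoter sites were chosen after seeing the data. Without ENOSF1 the difference was -1.34 and the ADAR-SUGP1 count 5 in place of 9 sites; without SLC3A2 the difference was 5.37 and the GPATCH8-ADAR count 1 in place of 5. No paired analysis was possible because the tables hold 1 pooled count per transcript with no replicate values; for the same reason leaving out a replicate was not run. Read depth per site is unknown, so a gene missing from a list sets no limit on its editing.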

Other observations

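The next gene on each side of the 6 was looked up after the values were seen, by the order of genes in RefSeq. Of these 12 neighbours 2 were listed, both with ADAR-SUGP1, where 4.83% of RefSeq protein-coding genes had a row with that fusion; with 12 genes, some of them non-coding, nothing is read from this count. SNHG1, a host gene of small nucleolar RNAs next to SLC3A2, had 1 site, while SLC3A2 itself was on the GPATCH8-ADAR list alone. LRWD1, which encodes a protein of the origin recognition complex and lies next to ORAI2, had 2 sites.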
